A study of Mus musculus with 8 samples.

Results

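The 10 genes described here are the Notch receptors Notch1, Notch2 and Notch3, the ligands Dll1, Dll4, Jag1 and Jag2, the target genes Hes1 and Hey1, and Atoh1. They were chosen by name among the 23393 genes of the expression table, with no value of the table entering the rule, and all 10 were found in it. Earlier results of these data were known when the genes were chosen. Notch receptors are cleaved when a Delta-like or Jagged ligand on a neighbouring cell binds them, and the freed intracellular part joins RBPJ in the nucleus to switch on repressors of the Hes and Hey families. In mouse intestine, Hes1 represses Atoh1, the factor that secretory cells need, so that cells with active Notch become absorptive and cells that escape it become goblet, Paneth or enteroendocrine cells. In squamous epithelium, Notch signalling takes part in the exit of basal cells into stratified layers.

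Poly(A) RNA was sequenced from the gut lining of E16.5 mouse embryos (late gestation), with 2 libraries each from colon, proximal small intestine (called intestine here), hindstomach and forestomach. In rodents the hindstomach carries glandular and the forestomach squamous epithelium, and the comparisons ask how the regions differ in expression. All 4 groups came from untreated embryos carrying ShhCre, a Cre recombinase under control of the endoderm-expressed Shh gene, and 1 R26YFP reporter allele, per the labels' protocols. No group lacked these alleles. Colon and intestine epithelium was shaken off in 5 mM EDTA and hindstomach epithelium in 10 mM EDTA, whereas forestomach epithelium was peeled off by hand after Dispase. Forestomach and Dispase, and hindstomach and the higher EDTA concentration, therefore cannot be told apart. The labels do not say whether the 2 libraries of a tissue came from separate embryos, and every p-value here reflects the spread of these libraries alone, which could be technical.

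The library labelled forestomach replicate 1 stood apart. Its correlation with forestomach replicate 2 over all genes was 0.713 (log2 scale), against 0.959, 0.984 and 0.980 for the colon, intestine and hindstomach pairs. Markers of glandular stomach summed to 165115 FPKM in it, against 66.6 FPKM in forestomach replicate 2 and 1417 and 1929 FPKM in the hindstomach, while its 9 squamous markers summed to 1270 FPKM against 37623 FPKM in replicate 2, 246 and 30.5 FPKM in hindstomach and 4.36 to 12.3 FPKM in colon and intestine. The squamous keratin Krt14 was 193 FPKM in it and 212 FPKM in replicate 2, and 1.75 FPKM or less in the other 6 libraries. All other squamous markers lay further apart, as Krt13 at 233 FPKM in it and 15454 FPKM in replicate 2. Krt15 and Dsg3 were 11.1 and 1.05 FPKM in it, below the 59.5 and 1.41 FPKM of hindstomach replicate 1. Total FPKM was 545227 in this library and 328490 to 378497 in the other 7. This library thus goes against its label in the glandular markers except Sox21. Sox21 was 12.4 FPKM in it, 22.2 FPKM in replicate 2 and 34.8 and 33.5 FPKM in hindstomach. Cldn18, at 175 FPKM, lay above replicate 2 (14.9 FPKM) but below hindstomach (337 and 339 FPKM), and Pgc alone gave 97970 FPKM of the glandular sum. In the squamous markers this library lies below replicate 2 and goes with its label in most, but not in Krt15 and Dsg3. Each result that rests on it is given with and without it. Intestinal markers summed over 9 genes to 3013 to 16496 FPKM in colon and intestine, 2399 and 2440 FPKM in hindstomach, and 34.4 and 3.11 FPKM in forestomach. Epithelial markers were present in every library (1387 to 4153 FPKM over 7 genes). Read numbers are not in the files. The steps between low values put the depth of the other libraries at 0.426 to 0.948 of that of intestine replicate 1, with a factor of 2 that cannot be told apart.

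Atoh1 was high in colon, lower in intestine, lower again in hindstomach and at 0.0042 FPKM and a listed 0 in forestomach. The Delta ligand Dll1 was 6.83 to 12.1 FPKM in colon and intestine and 1.43 to 2.59 FPKM in the stomach. Hes1, the most abundant of the 10 genes in every library, was highest in hindstomach. The bowel (colon and intestine, 4 libraries) and the stomach (hindstomach and forestomach, 4 libraries) did not overlap for these 3 genes and overlapped for the other 7, which held with and without forestomach replicate 1. Of all genes tested, 16.2% did not overlap in that way with all 8 libraries and 22.1% without forestomach replicate 1. The share called was 10.6% with all 8 libraries and 17.1% without forestomach replicate 1, by the test and rule given below the sequences. The receptors and Jagged ligands reached their highest values in forestomach replicate 2, the library with the high squamous markers.

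The sequences shown here are the stretches just upstream of the start of Atoh1 and of both Delta ligands, the genes with the largest called differences among the 10 with all 8 libraries. They are RefSeq promoter windows of build GRCm38.p6, 250 bases each, written 5′ to 3′ on the strand of the gene. Atoh1 lies at chr6:64728875-64729124 (plus strand), Dll1 at chr17:15376933-15377182 (minus strand, the upstream one of its 2 starts) and Dll4 at chr2:119325534-119325783 (plus strand). Capitals mark every match, on either strand, of TGGGAA (core of the RBPJ site), CAGCTG (an E-box), CACNAG (the N-box bound by Hes proteins) or CACGNG (the class C site bound by Hes proteins). The letters CACGAG match both of the last ones. The class C letters were added after the windows had been read.
Atoh1: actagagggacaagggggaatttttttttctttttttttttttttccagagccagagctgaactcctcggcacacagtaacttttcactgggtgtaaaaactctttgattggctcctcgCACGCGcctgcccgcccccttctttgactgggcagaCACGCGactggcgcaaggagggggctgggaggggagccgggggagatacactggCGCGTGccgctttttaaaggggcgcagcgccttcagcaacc
Dll1: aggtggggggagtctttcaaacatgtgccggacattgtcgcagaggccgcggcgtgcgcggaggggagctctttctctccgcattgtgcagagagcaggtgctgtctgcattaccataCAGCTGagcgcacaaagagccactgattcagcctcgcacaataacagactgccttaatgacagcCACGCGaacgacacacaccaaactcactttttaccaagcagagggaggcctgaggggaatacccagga
Dll4: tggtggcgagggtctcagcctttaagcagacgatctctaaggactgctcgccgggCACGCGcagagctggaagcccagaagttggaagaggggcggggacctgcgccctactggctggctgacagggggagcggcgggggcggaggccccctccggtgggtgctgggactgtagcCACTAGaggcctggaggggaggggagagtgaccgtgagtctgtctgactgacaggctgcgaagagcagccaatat
The Atoh1 window held 3 class C matches, starting 131, 95 and 41 bases upstream of the start, and no match of the other motifs. At least 3 such matches occurred in 1.11% of the 32851 windows of all genes, and at least 1 in 23.5%. The Dll1 window held an E-box 132 bases and a class C match 68 bases upstream, and the Dll4 window an N-box 75 bases and a class C match 195 bases upstream. An E-box occurred in 13% and an N-box in 36.7% of all windows. TGGGAA was in none of the 9 windows that covered 8 of the 10 genes, and in 21.6% of all windows. A match describes letters only and was not tested for binding, and a missing match says only that these letters are not in the window. Hes1 and Hey1 are named only. By the GENCODE M21 annotation all 10 genes are protein coding, with Atoh1 at chr6:64729125-64731245, Dll1 at chr17:15367354-15376872, Dll4 at chr2:119325784-119335962 and Hes1 at chr16:30064384-30067796 (GRCm38).

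**Figure D1:**
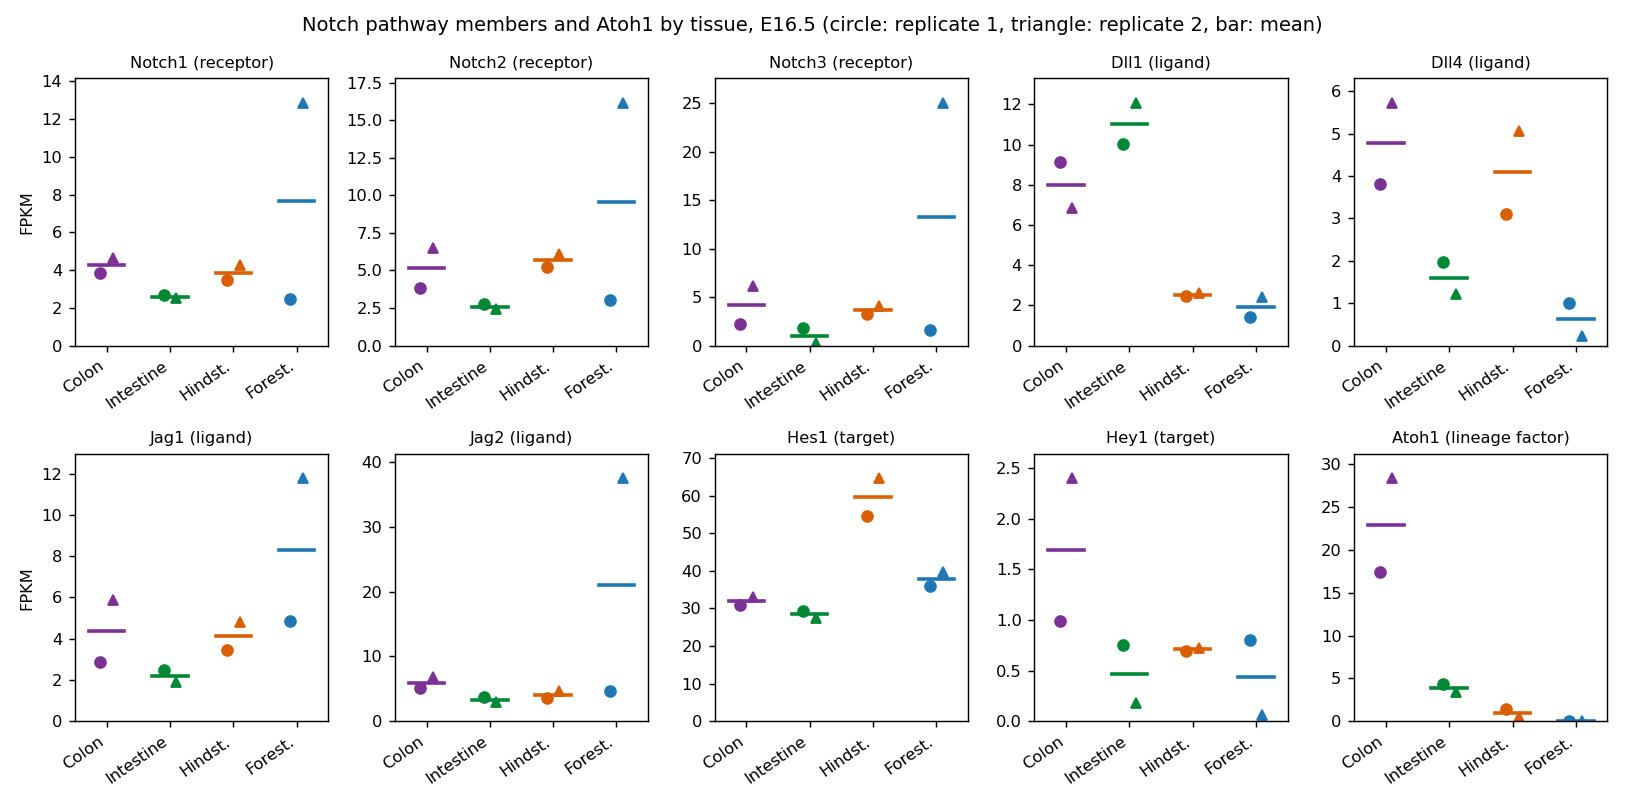
FPKM of the 10 genes (each panel has its own vertical scale) in colon, intestine, hindstomach and forestomach, with a circle for replicate 1, a triangle for replicate 2 and a bar for their mean. Atoh1 stood at 17.4 and 28.3 FPKM in colon and at 0.0042 and 0 FPKM in forestomach, Dll1 was 6.83 FPKM or more in all colon and intestine libraries and 2.59 or less in all stomach libraries, and the receptors and Jagged ligands peaked in forestomach replicate 2.

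The levels are FPKM, fragments per length of transcript and library size, so that genes can be set side by side within a library. Differences were tested with limma on log2(FPKM + 1) across the 12894 genes that reached 1 FPKM in 2 libraries or more. Calls required both a p under 0.05 after Benjamini-Hochberg adjustment over all these genes and a change of at least 2-fold on that scale. By this rule 10.6% of all genes were called in bowel minus stomach, 0.38% in colon minus intestine, 5.03% in intestine minus hindstomach, 5.59% in hindstomach minus forestomach, 1.5% in colon minus hindstomach, 17.1% in intestine minus forestomach and 11.6% in colon minus forestomach. Without forestomach replicate 1 the shares were 17.1%, 2.54%, 17.4%, 20.9%, 7.59%, 27.9% and 25.6%, in the same order of comparisons. Of the 10 genes, 9 passed the filter. Hey1, with 1 library above 1 FPKM, did not.

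The bowel and stomach libraries overlapped for each of the 3 receptors. Notch1, a receptor needed in the mouse intestine together with Notch2, had 3.84 and 4.65 FPKM in colon, 2.68 and 2.52 in intestine, 3.46 and 4.26 in hindstomach, and 2.48 and 12.9 in forestomach. Notch2 had 3.82 and 6.49 FPKM in colon, 2.74 and 2.402 in intestine, 5.24 and 6.08 in hindstomach, and 3.00 and 16.2 in forestomach. Both receptors were thus at 6.49 FPKM or less in all libraries except forestomach replicate 2, and both were lowest by tissue mean in intestine. Notch3, best known as the receptor of vascular smooth muscle cells and pericytes, had 2.21 and 6.14 FPKM in colon, 1.78 and 0.264 in intestine, 3.24 and 4.10 in hindstomach, and 1.57 and 25.1 in forestomach. Its spread within a tissue was the widest of the receptors. In the intestine it differed 6.74-fold between the 2 libraries.

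None of the receptors was called in any of the 7 comparisons with all 8 libraries (limma), and none had an unadjusted p under 0.05 there. In bowel minus stomach the log2 differences were -0.42 ± 0.43 for Notch1 (SE, adjusted p = 0.583), -0.68 ± 0.46 for Notch2 (adjusted p = 0.389) and -1.04 ± 0.76 for Notch3 (adjusted p = 0.428). With forestomach replicate 1 left out, Notch2 and Notch3 were lower in bowel than in stomach, by log2 differences of -1.21 ± 0.19 (adjusted p = 0.00529) and -1.88 ± 0.40 (adjusted p = 0.0159). Notch1 then had an adjusted p of 0.00357 but a difference under 2-fold (-0.92 ± 0.13), and its difference was 0.079 without forestomach replicate 2. The libraries of bowel and stomach still overlapped for all 3 receptors. In hindstomach minus forestomach, all 3 were lower in hindstomach without that library (Notch1 -1.52 ± 0.19, Notch2 -1.37 ± 0.29, Notch3 -2.49 ± 0.62), where the forestomach is represented by 1 library whose spread is assumed to be that of the other tissues. Without forestomach replicate 2 instead, the same differences were 0.48, 0.73 and 0.86, so their direction depended on which forestomach library was used.

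As shares of summed receptor FPKM within a library, Notch2 took 37.6% to 46.4% in the 6 colon, intestine and hindstomach libraries. Notch1 took 26.9% to 48.6% and Notch3 5.09% to 35.5% in the same libraries. Forestomach replicate 1 resembled these with 22.2% for Notch3, and forestomach replicate 2 had 46.3%. Such shares do not depend on the scaling between libraries.

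Among the ligands, Dll1 set the bowel apart. Dll1, which with Dll4 sustains the stem cells of the mouse intestine, had 9.16 and 6.83 FPKM in colon and 10.0 and 12.1 in intestine, against 2.44 and 2.59 in hindstomach and 1.43 and 2.43 in forestomach. The lowest bowel library lay above the highest stomach library by more than any spread within a tissue. Dll1 was higher in bowel than in stomach by a log2 difference of 1.70 ± 0.18 (adjusted p = 0.00318), and by 1.58 ± 0.14 (adjusted p = 0.00105) without forestomach replicate 1. The call held with every other library left out in turn, and under the other scaling, pseudocount and filter. Fewer cells that express a gene and less of its RNA per cell cannot be told apart in such bulk samples. By tissue mean the order was intestine (11.05 ± 1.47 FPKM, SD, n = 2), colon (7.99 ± 1.65), hindstomach (2.52 ± 0.11) and forestomach (1.93 ± 0.70). Colon minus intestine (-0.43 ± 0.26, adjusted p = 0.477) and hindstomach minus forestomach (0.28 ± 0.26, adjusted p = 0.478) were not called.

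Dll4, the other Delta ligand and in vessels the ligand of tip cells, did not follow Dll1. It had 3.81 and 5.73 FPKM in colon and 3.11 and 5.07 in hindstomach, against 1.96 and 1.21 in intestine and 1.01 and 0.219 in forestomach. Colon and hindstomach overlapped, and both lay above both intestine and both forestomach libraries. Colon exceeded forestomach by a log2 difference of 1.86 ± 0.37 (adjusted p = 0.0261), or 2.22 ± 0.35 without forestomach replicate 1 (adjusted p = 0.00696). The call was lost in 10 of the 13 other settings, among them leaving out either colon, intestine or hindstomach library and median-of-ratios scaling (1.58, adjusted p = 0.0601), and the difference was 3.00 with a pseudocount of 0.1. Hindstomach minus forestomach was not called with all libraries (1.67 ± 0.37, adjusted p = 0.055) and was called without forestomach replicate 1 (2.03 ± 0.35, adjusted p = 0.0104) and without forestomach replicate 2 (1.31, adjusted p = 0.031). Colon minus intestine gave 1.15 ± 0.37 (adjusted p = 0.316), and colon minus hindstomach 0.19 ± 0.37.

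The Jagged ligands were highest in forestomach replicate 2. Jag1, a ligand of many developing epithelia, had 2.87 and 5.88 FPKM in colon, 2.51 and 1.92 in intestine, 3.46 and 4.79 in hindstomach, and 4.87 and 11.8 in forestomach. Jag2, a ligand found in stratified epithelium, had 5.06 and 6.81 FPKM in colon, 3.71 and 2.91 in intestine, 3.54 and 4.65 in hindstomach, and 4.66 and 37.5 in forestomach. For Jag2, forestomach replicate 1 lay among the other tissues, while both forestomach libraries of Jag1 lay above the hindstomach libraries. Neither was called in any of the 7 comparisons with all libraries (limma), where only Jag1 in intestine minus forestomach, had an unadjusted p under 0.05 (-1.44 ± 0.46, adjusted p = 0.0771). When the forestomach was represented by replicate 2 alone, Jag2 was lower in bowel than in stomach (-1.36 ± 0.16, adjusted p = 0.00226) and lower in hindstomach than in forestomach (-2.93 ± 0.25, adjusted p = 0.00119). Jag1 was then lower in hindstomach than in forestomach (-1.33 ± 0.38, adjusted p = 0.0471). Without forestomach replicate 2, Jag2 in bowel minus stomach was 0.02.

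Set against each other within a library, the Delta ligands made up a smaller part of the ligands in stomach than in bowel. Dll1 and Dll4 together made up 62.1% and 49.7% of ligand FPKM in colon and 65.8% and 73.4% in intestine, against 44.2% and 44.8% in hindstomach and 20.4% and 5.10% in forestomach. All 4 bowel libraries lay above all 4 stomach libraries, with or without forestomach replicate 1. Jag2 alone made up 72.2% in forestomach replicate 2, and Dll1 alone made up 55.0% and 66.7% in intestine. The summed Delta level was 12.97 and 12.6 FPKM in colon, 11.97 and 13.3 in intestine, 5.55 and 7.66 in hindstomach, and 2.44 and 2.65 in forestomach, so its 2 forestomach libraries lay close together. Their Jagged sums lay apart, at 9.53 and 49.2 FPKM. The shares are descriptions and were not tested.

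**Figure D2:**
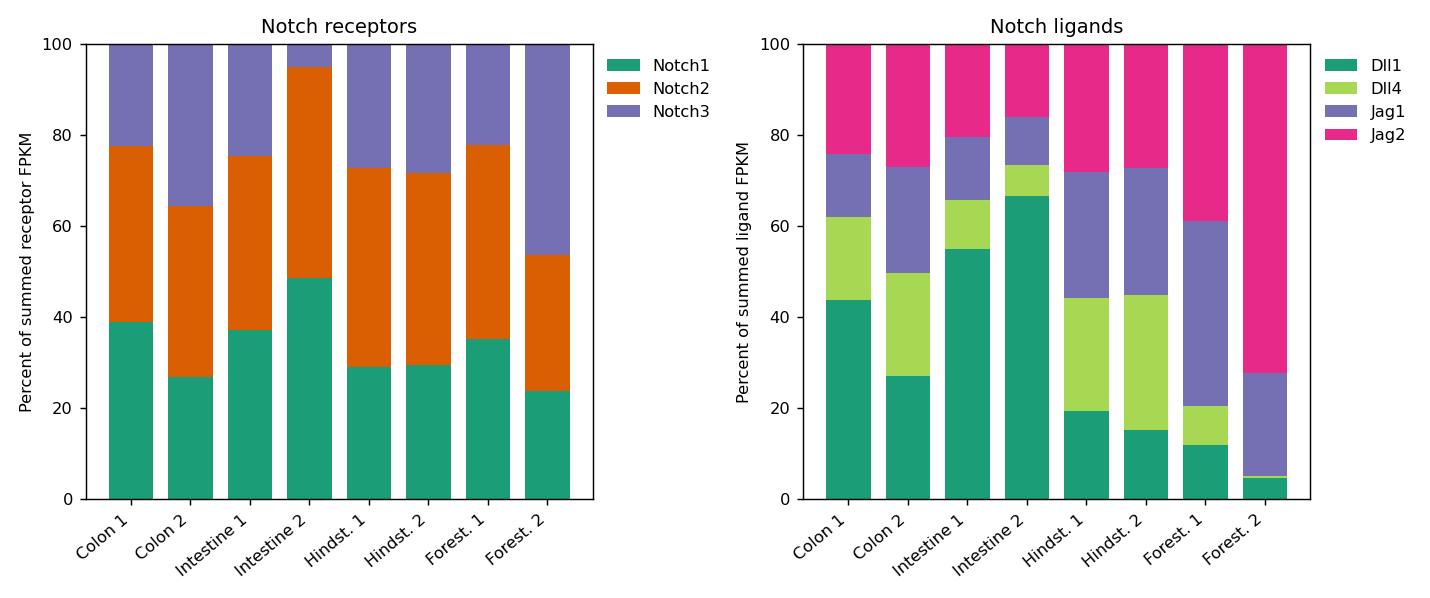
Percent of summed receptor FPKM (left) and of summed ligand FPKM (right) taken by each gene in each of the 8 libraries. Delta ligands (Dll1 and Dll4, lower segments on the right) ran from 49.7% to 73.4% in the bowel libraries and from 5.10% to 44.8% in the stomach libraries.

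The target genes differed in level and pattern. Hes1, the repressor that carries much of the Notch response in gut epithelium, had 30.9 and 33.2 FPKM in colon, 29.4 and 27.6 in intestine, 54.6 and 64.6 in hindstomach, and 35.9 and 39.6 in forestomach. Hindstomach was highest in both libraries, forestomach came next, and colon and intestine were lowest. By tissue mean Hes1 stood at 32.0 ± 1.6 FPKM in colon, 28.5 ± 1.3 in intestine, 59.6 ± 7.1 in hindstomach and 37.8 ± 2.6 in forestomach (SD, n = 2 each). Hes1 was lower in intestine than in hindstomach by a log2 difference of -1.03 ± 0.17 (adjusted p = 0.0298), and by the same difference with an adjusted p of 0.00542 without forestomach replicate 1. This difference lies close to the 2-fold limit: under median-of-ratios scaling it was -0.76 (adjusted p = 0.0518), the median of all genes in that comparison being -0.25 before the scaling and -0.03 after it. The call was lost in 8 of the 13 other settings, among them leaving out either colon, intestine or hindstomach library. Bowel minus stomach passed the adjusted p (0.0192, and 0.00471 without forestomach replicate 1) but not the 2-fold limit, with -0.63 ± 0.12 and -0.67 ± 0.10.

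Hey1, a target best known from blood vessels, was low throughout, with 0.988 and 2.398 FPKM in colon, 0.757 and 0.179 in intestine, 0.694 and 0.724 in hindstomach, and 0.805 and 0.0604 in forestomach. It exceeded 1 FPKM in colon replicate 2 only. With the filter on low values dropped, Hey1 was called in none of the 7 comparisons (limma, adjusted p from 0.212 to 0.975). Hes1 exceeded Hey1 13.8-fold or more in every library, in FPKM.

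Atoh1 had 17.4 and 28.3 FPKM in colon, 4.35 and 3.36 in intestine, 1.40 and 0.530 in hindstomach, and 0.0042 FPKM and a listed 0 in forestomach. The 4 tissues followed each other without overlap. Atoh1 was higher in bowel than in stomach by a log2 difference of 2.94 ± 0.23 (adjusted p = 0.00119), and by 2.94 ± 0.25 (adjusted p = 0.000893) without forestomach replicate 1. Since the stomach values are low, this difference depends on the pseudocount and was 4.89 with a pseudocount of 0.1. The call held with each library left out in turn. Set against Hes1 within a library, Atoh1 stood at 0.565 and 0.854 of the Hes1 level in colon, 0.148 and 0.122 in intestine, 0.0256 and 0.0082 in hindstomach, and 0.0001 and 0 in forestomach. The highest stomach ratio thus lay below the lowest bowel ratio. This follows from Atoh1 being higher and Hes1 lower in every bowel library than in every stomach library.

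Markers of intestine and of pancreas differed along with Atoh1 among the stomach libraries. Cdx2, a factor of intestinal identity, had 24.4 and 16.55 FPKM in hindstomach, against 0.0273 FPKM and a listed 0 in forestomach. It had 91.1 to 135 FPKM in bowel. Of the 9 intestinal markers, 8 reached 1 FPKM in each hindstomach library, against 3 and 1 in forestomach, with Cdx1 and Cdx2 listed at 0 in forestomach replicate 2. The 10 markers of pancreatic acinar cells summed to 1473 and 449 FPKM in colon, 2338 and 398 in intestine, 3613 and 960.3 in hindstomach, and 38.6 and 1.97 in forestomach. Of them, 8 reached 1 FPKM in each hindstomach library, 7 or 8 in the bowel libraries, and 4 and 1 in the forestomach ones. Amy2a5 was listed at 0 in intestine replicate 2, hindstomach replicate 2 and both forestomach libraries, Pnlip in intestine replicate 2 and forestomach replicate 2, and Cpa1 and Prss1 in forestomach replicate 2. In hindstomach replicate 2 over replicate 1 the ratio was 0.379 for Atoh1, 0.266 for the acinar sum and 1.02 for the intestinal sum. The part of these cells in the hindstomach levels of Atoh1 and of the secretory genes given below was not tested.

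Bowel minus stomach had 2 of the 9 tested genes called with all 8 libraries (Atoh1 and Dll1 higher), against 10.6% of all genes tested. Leaving out forestomach replicate 1, it had 5 (Atoh1 and Dll1 higher, Notch2, Notch3 and Jag2 lower), against 17.1% of all genes. Colon minus intestine had none called with all libraries (limma, 2 genes at an unadjusted p under 0.05), against 0.38% of all genes. It had 1, Atoh1, without forestomach replicate 1, against 2.54%. The Atoh1 difference was 2.27 ± 0.33 with an adjusted p of 0.0787 and 2.27 ± 0.32 with 0.031. Leaving out forestomach replicate 2 gave an adjusted p of 0.0312 in its place, so Atoh1 was called with either forestomach library left out but not with all 8 libraries.

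Intestine minus hindstomach had 2 called (Dll1 higher, Hes1 lower), against 5.03% of all genes, and 3 without forestomach replicate 1, with Atoh1 added (1.33 ± 0.32, adjusted p = 0.0294), against 17.4%. Dll1 stood at 1.77 ± 0.26 (adjusted p = 0.0231). No gene of the 10 was called there without intestine replicate 1, intestine replicate 2, hindstomach replicate 1 or hindstomach replicate 2. Hardly any of all genes tested was called in those fits either. The Dll1 difference in them was 1.90, 1.65, 1.74 and 1.80, in the same order. Hindstomach minus forestomach had none called with all libraries (limma, 3 genes at an unadjusted p under 0.05), against 5.59%, and 6 without forestomach replicate 1, against 20.9%. Of those 6, Dll4 was higher and Notch1, Notch2, Notch3, Jag1 and Jag2 were lower in hindstomach.

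Colon minus hindstomach had 1 called, Atoh1 (3.60 ± 0.33, adjusted p = 0.00997), against 1.5% of all genes. It had 2 without forestomach replicate 1, with Dll1 added (1.34 ± 0.18, adjusted p = 0.0113), against 7.59%. No call remained there without colon replicate 1, colon replicate 2, hindstomach replicate 1 or hindstomach replicate 2. Intestine minus forestomach had 2 called, Atoh1 (2.27 ± 0.33, adjusted p = 0.00748) and Dll1 (2.06 ± 0.26, adjusted p = 0.00467), against 17.1% of all genes. It had 7 without forestomach replicate 1, against 27.9%, with Notch1, Notch2, Notch3, Jag1 and Jag2 lower in intestine. Without intestine replicate 1 only Dll1 and without intestine replicate 2 none was called. Colon minus forestomach had 3 called, Atoh1 (4.54 ± 0.33, adjusted p = 0.00108), Dll4 and Dll1 (1.63 ± 0.26, adjusted p = 0.0135), against 11.6%, and 8 without forestomach replicate 1, against 25.6%. Without colon replicate 1, Atoh1 alone was called. With a pseudocount of 0.1 the Atoh1 difference was 5.27 in intestine minus forestomach and 7.77 in colon minus forestomach, so its size there depends on the pseudocount. In the last 2 comparisons the remaining forestomach library lists Atoh1 at 0, so no fold is given there. The 7 comparisons share libraries and are not independent of each other.

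**Figure D3:**
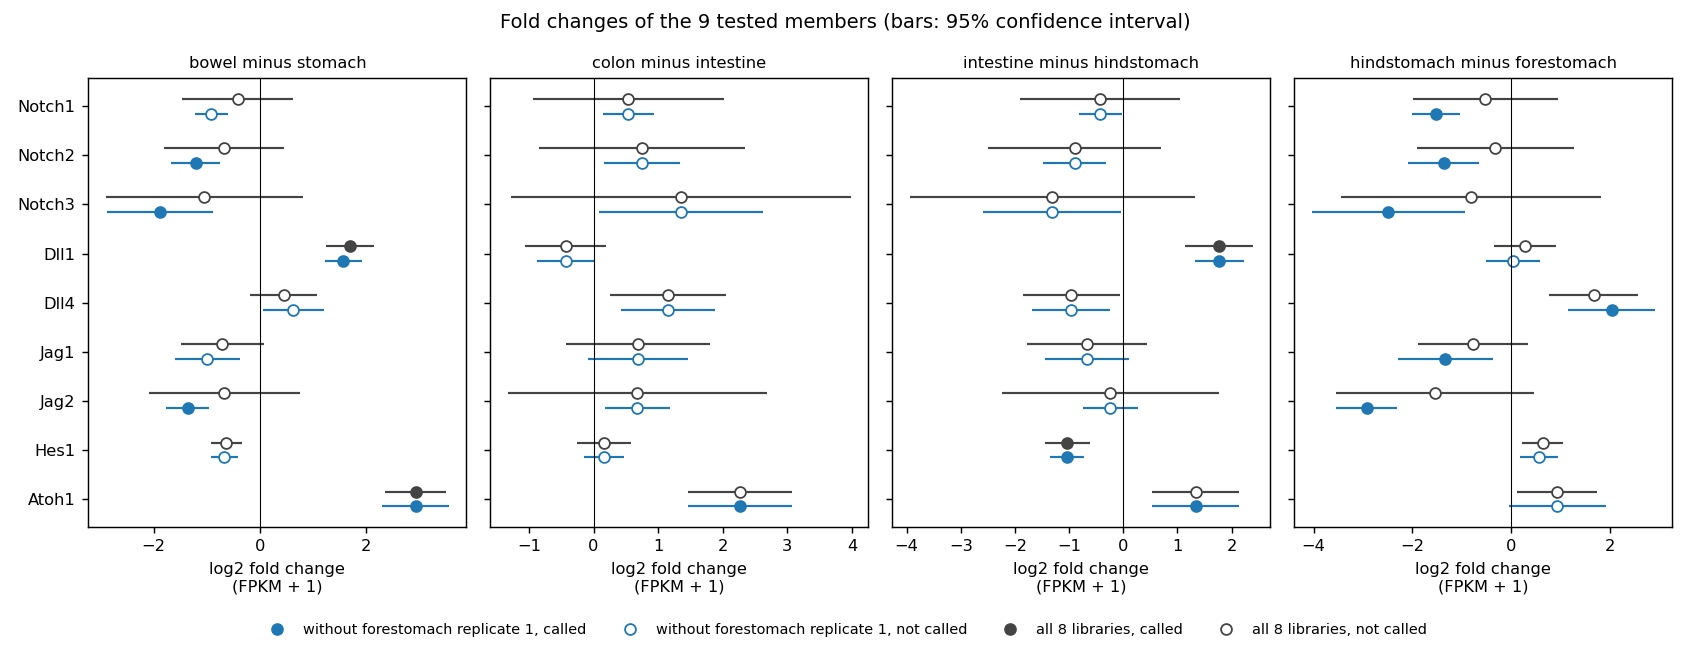
Log2 differences on the FPKM + 1 scale (horizontal axis) of the 9 tested genes in 4 of the 7 comparisons, with 95% confidence intervals; dark points are from all 8 libraries, blue points leave out forestomach replicate 1, and filled points were called. Atoh1 (2.94) and Dll1 (1.70) are filled on the bowel side in both fits, while the receptors and Jagged ligands are filled in hindstomach minus forestomach in blue only.

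Of the 58 other genes of the Notch pathway, 52 were tested with all libraries. Counts called here and in the secretory list below stand against the shares of all genes given above for the same fit. Pofut1, the enzyme that puts O-fucose on Notch receptors, was called higher in bowel, with 24.2 and 19.3 FPKM in colon and 31.0 and 28.9 in intestine, against 10.7 and 9.27 in hindstomach and 2.53 and 4.23 in forestomach. Its log2 difference was 1.95 ± 0.17 (adjusted p = 0.00174), and 1.81 ± 0.12 without forestomach replicate 1. It rose also in intestine over hindstomach and in hindstomach over forestomach, and its libraries ordered the 4 tissues without overlap. Cdkn1a, a cell cycle inhibitor, was called lower in bowel (-1.37 ± 0.25, adjusted p = 0.0169), with 28.8 to 43.0 FPKM in bowel against 48.1 to 192 in stomach. The other 50 were not called there, where 10.6% of all genes were called. The median difference of the list was 0.06, against 0.07 for all genes. In the fit without forestomach replicate 1, 3 of 50 were called, with Neurl3, a Neuralized-type ubiquitin ligase, higher (1.29 ± 0.24) beside Pofut1 and Cdkn1a.

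In intestine minus hindstomach, Adam10, the protease that makes the first activating cut in Notch, was lower (-1.15 ± 0.19, adjusted p = 0.0319), with 27.8 and 23.5 FPKM in intestine against 61.7 and 54.2 in hindstomach. Pofut1 was higher (1.5 ± 0.25, adjusted p = 0.0299), and these were the only 2 of 52 called, against 5.03% of all genes. In intestine minus hindstomach without forestomach replicate 1, Dtx4, a Deltex-type ubiquitin ligase (-2.16 ± 0.21), and Sox9, a progenitor factor (-2.06 ± 0.21), were lower as well. In hindstomach minus forestomach the share of all genes was 5.59% with all libraries. In hindstomach minus forestomach, 4 of 52 were higher and none lower: Olfm4, a secreted marker of intestinal stem cells that depends on Notch (5.20 ± 0.99), Dlk1, a non-classical Delta-like protein (3.46 ± 0.69), Dtx4 (2.79 ± 0.52) and Pofut1 (1.35 ± 0.25). Without forestomach replicate 1, 7 of 50 were higher and 5 lower. Nrarp, a feedback inhibitor induced by Notch, fell most among the 5 (-2.63 ± 0.15, adjusted p = 0.000526).

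Nrarp had 10.5 and 9.19 FPKM in hindstomach, against 7.197 and 65.8 in forestomach. Its forestomach libraries therefore lay on both sides of the hindstomach, as those of the 3 receptors did. Colon minus intestine had none of the 52 called (limma, 10 at an unadjusted p under 0.05), and Notch4, the endothelial receptor, was called without forestomach replicate 1 (2.02 ± 0.27, adjusted p = 0.0269). It had 3.52 and 5.996 FPKM in colon, against 0.566 and 0.228 in intestine. In hindstomach Notch4 had 0.664 and 1.02 FPKM, and in forestomach 1.42 and 6.08. Colon minus hindstomach had none called with all libraries (limma, 10 at an unadjusted p under 0.05), and 3 higher and 2 lower without that library. Hes6, an antagonist of Hes1, was higher in colon than in forestomach (1.48 ± 0.15) and in intestine than in forestomach (1.38 ± 0.15), with 34.9 to 39.8 FPKM in bowel against 13.03 and 13.7 in forestomach. Of all genes, 17.1% were called in intestine minus forestomach and 11.6% in colon minus forestomach with all libraries. Of the 52, intestine minus forestomach had 3 higher and 1 lower, and colon minus forestomach 4 higher and 1 lower. The counts without forestomach replicate 1 were 7 and 9, and 11 and 2, of 50.

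Genes of the secretory program that depends on Atoh1 in mouse intestine followed it only in part. Of the 21 listed, 20 were tested with all libraries. In bowel minus stomach 9 were higher and 1 was lower, against 10.6% of all genes called. The median difference was 0.74, against 0.07 for all genes. The 6 with the largest differences were Tff3 (5.60 ± 0.21), Clca1 (4.31 ± 0.67), Spink4 (4.06 ± 1.04), Fcgbp (3.5 ± 0.29), Zg16 (3.39 ± 0.31) and Muc2 (3.02 ± 0.30), all secreted products of goblet cells. Gfi1, a repressor downstream of Atoh1, had 2.75 and 4.25 FPKM in colon and 0.906 and 0.622 in intestine, against 0.860 and 0.251 in hindstomach and 0.0597 and 0.0221 in forestomach, and was called higher in bowel together with Chgb and Neurog3. The lower one was Pou2f3, a factor of tuft cells, which stood under 0.1 FPKM in all bowel libraries. Without forestomach replicate 1, 10 of 19 were higher and 1 (Sox4) lower, with a median of 1.16 against 0.01 for all genes.

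Muc2, the main mucin of goblet cells, had 36.6 and 47.6 FPKM in colon, 2.37 and 6.40 in intestine, 1.34 and 2.403 in hindstomach, and 0.242 and 0.0604 in forestomach. As with Atoh1, colon stood far above intestine, but for Muc2 the intestine and hindstomach libraries overlapped. Tff3, a trefoil peptide, had 1382 and 1667 FPKM in colon, 573 and 546 in intestine, 227 and 137 in hindstomach, and 1.36 and 0.764 in forestomach. Spdef, a factor of goblet cell maturation, ran differently, with 28.5 and 50.8 FPKM in colon, 7.33 and 5.11 in intestine, 33.3 and 34.1 in hindstomach, and 19.8 and 18.4 in forestomach. It was lowest in intestine and was there lower than in hindstomach (-2.28 ± 0.31, adjusted p = 0.0196), whereas the Atoh1 values were higher in intestine than in hindstomach.

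Of all genes, with all libraries, 5.03% were called in intestine minus hindstomach, 0.38% in colon minus intestine and 1.5% in colon minus hindstomach. The shares were 5.59% in hindstomach minus forestomach, 17.1% in intestine minus forestomach and 11.6% in colon minus forestomach. In intestine minus hindstomach, 1 of 20 was higher (Tff3, 1.66 ± 0.30) and 2 were lower (Creb3l4, -2.51 ± 0.41, and Spdef). Without forestomach replicate 1, 5 of 19 were higher and 7 lower. The goblet products Spink4 (2.00 ± 0.30) and Clca1 (1.69 ± 0.35) and the granin Chgb were among the higher. The factors Bhlha15 (-2.68 ± 0.44), Creb3l1 (-2.65 ± 0.32), Creb3l4, Spdef, Sox4 and Foxa3 and the protein disulfide isomerase Agr2 were the lower. Colon minus intestine had Spdef called higher (2.45 ± 0.31, adjusted p = 0.0485) of 20. Without forestomach replicate 1 it had 6 of 19 higher: Creb3l1 (3.43 ± 0.32), Muc2 (3.10 ± 0.41), Agr2 (2.50 ± 0.20), Spdef (2.45 ± 0.30), Creb3l4 (2.13 ± 0.23) and Foxa3 (1.49 ± 0.18). None was lower. Colon minus hindstomach had Muc2 (3.92 ± 0.42) and Tff3 (3.10 ± 0.30) higher, and 5 higher and 1 lower without that library. Hindstomach minus forestomach had 5 of 20 higher (Tff3, Fcgbp, Zg16, Neurog3 and Insm1), and 14 of 19 without that library. Intestine minus forestomach had 9 higher and 2 lower of 20, and colon minus forestomach 9 and 1. These were, without forestomach replicate 1, 13 and 2, and 16 and 0, of 19.

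**Figure D4:**
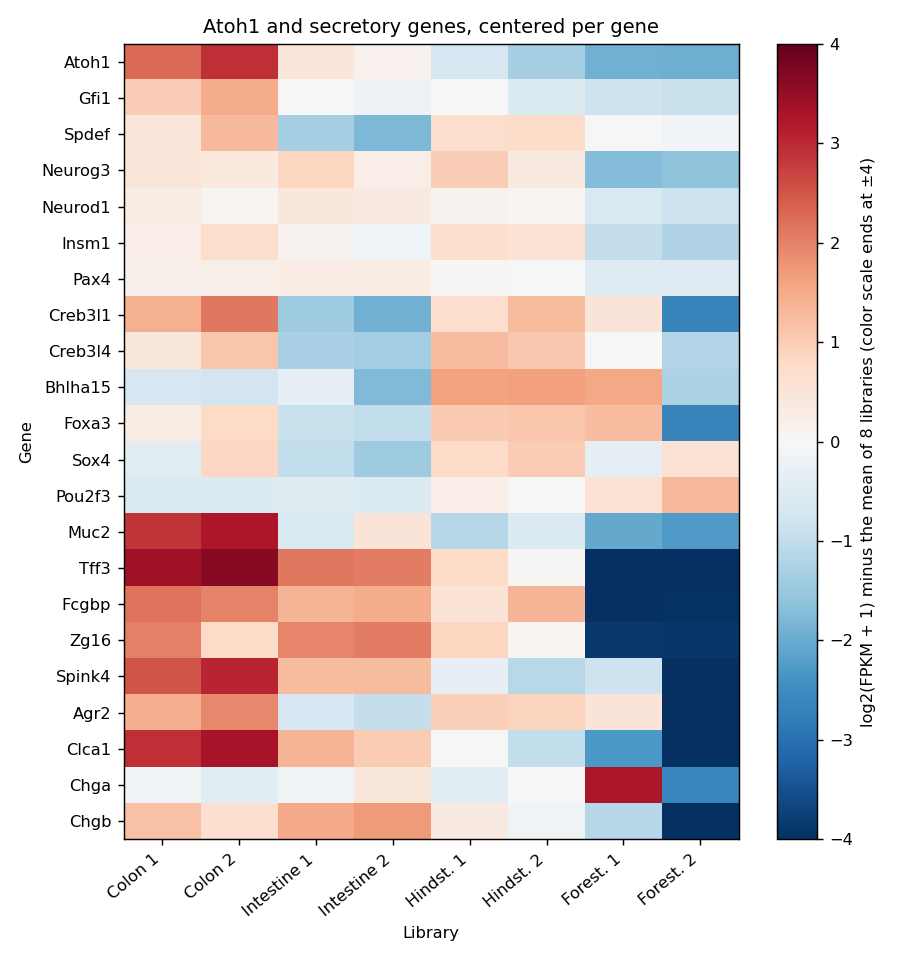
Log2(FPKM + 1) of Atoh1 and the 21 secretory genes in each of the 8 libraries, minus each gene's mean over the 8; red is above and blue below that mean, with the color scale ending at 4 either way. Atoh1, Muc2 and Tff3 are reddest in colon and bluest in forestomach, and Spdef and Creb3l1 are blue in intestine.

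Notch3 and Hey1 differed between libraries of the same tissue in intestine and colon, and markers of other cell types differed with them. Intestine replicate 1 exceeded intestine replicate 2 by 6.74-fold for Notch3 and 4.23-fold for Hey1, and colon replicate 2 exceeded colon replicate 1 by 2.78-fold and 2.43-fold. Summed endothelial markers differed 5.18-fold and 2.47-fold between the same libraries, and summed pericyte and smooth muscle markers 4.40-fold and 2.04-fold. Summed mesenchymal markers differed 5.44-fold and 2.58-fold, and those of enteric neurons and glia 1.51-fold and 3.07-fold. Dll1 (0.828 and 0.745), Hes1 (1.07 in both) and Notch1 (1.06 and 1.21) did not share these ratios, nor did summed epithelial markers (0.950 and 1.03). Notch2 differed 1.14-fold and 1.70-fold, and Jag1 1.31-fold and 2.05-fold. Summed acinar markers differed 5.88-fold in intestine and, at 0.305, the other way in colon. Atoh1 differed 1.29-fold and 1.63-fold, and Dll4 1.61-fold and 1.503-fold. In hindstomach replicate 2 over replicate 1 the ratios were smaller, at 1.27 for Notch3 and 1.04 for Hey1, against 1.54 for endothelial and 2.21 for pericyte and smooth muscle markers. Heyl and Hey2, further targets of the Hey family, Mfng, a fringe enzyme, and Notch4 were looked at after their values had been seen. They differed 6.54-fold, 3.90-fold, 3.74-fold and 2.48-fold between the intestine libraries.

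The 15 endothelial markers summed to 51.8 and 128 FPKM in colon, 44.8 and 8.65 in intestine, 25.0 and 38.5 in hindstomach, and 84.6 and 3.67 in forestomach. Of them, 13 and 15 reached 1 FPKM in the colon libraries, 12 and 3 in intestine, 10 and 12 in hindstomach, and 15 and 0 in forestomach. The 11 pericyte and smooth muscle markers summed to 595 and 1211 FPKM in colon, 267 and 60.8 in intestine, 91.2 and 202 in hindstomach, and 4693 and 25.5 in forestomach. No marker of either list was at 0 in any library. The part of these cells, and of mesenchymal, neural and glial cells, in the levels of Notch3, Hey1, Dll4 and Jag1 was not tested. The endothelial sum and the pericyte and smooth muscle sum were lowest in forestomach replicate 2. There Notch3 (25.1 FPKM), Notch1, Notch2, Jag1 and Jag2 were at their highest of the 8 libraries. Notch4 was highest there too, at 6.08 FPKM, while Hey1, Dll4, Heyl, Hey2 and Mfng were at their lowest. Forestomach replicate 1 had the highest pericyte and smooth muscle sum, with Notch3 at 1.57 FPKM and Notch4 at 1.42 FPKM.

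**Figure D5:**
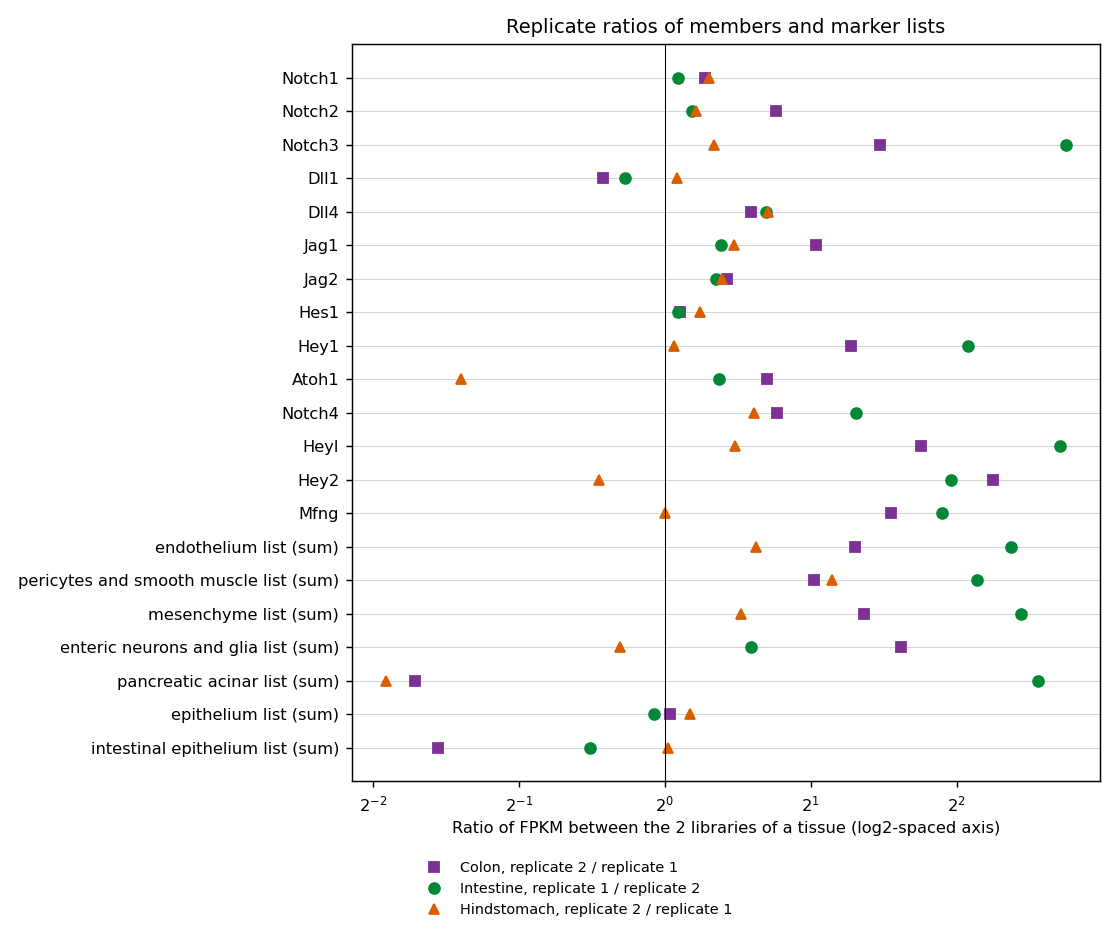
Ratio of FPKM between the 2 libraries of a tissue (horizontal axis, log2-spaced) for the 10 genes, 4 further Notch pathway genes and the summed marker lists; each ratio has on top the library with the higher endothelial sum. Notch3 and Hey1 lie far to the right with the endothelial, pericyte and mesenchymal lists in intestine (6.74 and 4.23) and colon (2.78 and 2.43), while Hes1, Notch1 and the epithelial list stay near 1.

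The genes most like a member were taken by Pearson correlation of log2(FPKM + 1) over the 8 libraries, as a description. Atoh1 ran most like Ces1c, Tpsg1, Cldn8, Unc119 and Hepacam2 (r = 0.99 each). Hepacam2 had 19.99 and 26.4 FPKM in colon, 4.99 and 4.38 in intestine, 2.67 and 1.46 in hindstomach, and 0.849 and 0.0611 in forestomach. Hes1 ran most like Gsdmc3 (r = 0.99), Tirap, Actr3b, Myo16 and Nt5c2 (r = 0.97 to 0.98), of which Myo16 had 11.7 and 16.3 FPKM in hindstomach and 1.38 or less in the other 6 libraries. Jag2 ran most like Gba2, Abcg1, Ephb6, Fzd10 and Trim62 (r = 0.99 each), each highest in forestomach replicate 2, as with 24.7 FPKM of Fzd10 against 1.26 or less elsewhere. Dll4 ran most like Ift43, Lrch3, Tmem214, Fndc3b and Pdia5 (r = 0.97 to 0.98), of which Pdia5, a protein disulfide isomerase, had 40.9 and 64.4 FPKM in colon, 17.2 and 12.2 in intestine, 40.2 and 38.7 in hindstomach, and 11.9 and 6.93 in forestomach. The points share tissues in pairs and, by the depth estimates above, may also differ in depth.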

How the data were processed

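The deposited values are FPKM that the authors computed per gene and library, in 1 table of 23393 gene symbols with 0 duplicated. Reads were aligned with STAR 2.4.2a to mm10 (GRCm38), per the submitters' processing notes. Which program and annotation gave the FPKM values, and whether strand was used, is not given in the sources used here. Reads of overlapping, antisense or near-identical genes could therefore be mixed. The table has 4 further columns, of no sample analysed here, which were left unused. Because FPKM is relative to the library's total, a few very abundant genes lower all others in a library.

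Values were analysed as log2(FPKM + 1), which understates the change of low genes, for genes that reached 1 FPKM in 2 or more libraries (12894 genes, or 12502 without forestomach replicate 1). The test was that of limma 3.58.1 (R 4.3.3), with 1 mean for each of the 4 tissues, a trended prior variance and 7 comparisons. Standard errors and Benjamini-Hochberg adjusted p-values are limma's over all genes of a comparison. The fit was tested on simulated data. Bowel minus stomach is the mean of colon and intestine minus the mean of hindstomach and forestomach. Marker lists were summed in FPKM. Promoter windows came from RefSeq and gene positions from GENCODE M21.

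Replicate numbers did not pair the libraries: deviations from the tissue means correlated between tissues at -0.58 to 0.27. The members and all lists were chosen with earlier results of these data known. All 10 members are named; of a list, the called genes, at most 6 per comparison with the largest change, with all libraries and again without forestomach replicate 1; for Atoh1, Hes1, Jag2 and Dll4, the 5 genes most like each, averaging at least 1 FPKM and leaving out predicted, RIKEN and Hox models. Alternatives were a pseudocount of 0.1, no filter, median-of-ratios scaling, a replicate block, a fit of only the 2 tissues compared, each library left out in turn and, added after seeing the data, a crossed replicate block.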

Additional observations from a re-analysis of the deposited data

Results flagged for a closer look

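In 20 groups of 4 libraries (each of the 10 genes in bowel and in stomach), 5 had a library set apart from the other 3 by Dixon's 95% criterion, which chance meets in about 1 in 20 groups. All 5 were in the stomach group, which pools hindstomach and forestomach, and in each the library set apart was a forestomach one. Forestomach replicate 2 was highest for Notch3 (25.1 FPKM), Jag1 (11.8 FPKM) and Jag2 (37.5 FPKM) and lowest for Hey1 (0.0604 FPKM). Forestomach replicate 1 was lowest for Dll1, at 1.43 FPKM. The highest of the other 3 stomach libraries was 4.10 FPKM for Notch3, 4.87 for Jag1 and 4.66 for Jag2, and the lowest was 0.694 FPKM for Hey1 and 2.43 for Dll1.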

How the results depend on the processing

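Atoh1 and Dll1 in bowel minus stomach were called under all 12 alternatives, with log2 differences of 2.77 to 4.89 and 1.58 to 2.05. With each library left out in turn, the number of the tested genes called ran from 2 to 5 in bowel minus stomach, 0 to 1 in colon minus intestine, 0 to 3 in intestine minus hindstomach, 0 to 6 in hindstomach minus forestomach, 0 to 2 in colon minus hindstomach, 0 to 7 in intestine minus forestomach and 1 to 8 in colon minus forestomach. A pseudocount of 0.1 gave 1 in hindstomach minus forestomach (Atoh1). Fits of only the 2 tissues compared gave 2 in colon minus hindstomach, 1 in intestine minus forestomach and 1 in colon minus forestomach. The libraries share only a replicate number: the replicate block gave 0 in intestine minus hindstomach and 2 in colon minus forestomach and left the other 5 counts as they were, and the crossed block gave 0 in colon minus intestine and 0 in hindstomach minus forestomach. Without forestomach replicate 2, 10 of the 63 differences of the tested genes changed sign. They were Notch1 in bowel minus stomach (0.079, against -0.92 without forestomach replicate 1) and 9 of the 32 that were called with all libraries or without forestomach replicate 1. No other setting in which all 7 comparisons were refitted changed the sign of any of those 32. From the fit without forestomach replicate 1 to that without replicate 2, the log2 difference ran from -1.36 to 0.022 for Jag2 in bowel minus stomach. In hindstomach minus forestomach it ran from -1.52 to 0.48 for Notch1, -1.37 to 0.73 for Notch2 and -2.49 to 0.86 for Notch3. In intestine minus forestomach it ran from -1.95 to 0.046 for Notch1. In colon minus forestomach it ran from -1.41 to 0.59 for Notch1, -1.51 to 0.59 for Notch2, -2.45 to 0.90 for Notch3 and -2.48 to 0.28 for Jag2. The causes were not tested. Median-of-ratios scaling moved the median of all genes to 0.03, against 0.39, in hindstomach minus forestomach, to -0.02, against 0.23, in colon minus intestine, and to 0.02, against 0.41, in colon minus forestomach. Calls were then higher in the first-named tissue in 46.7%, against 76.1%, in hindstomach minus forestomach, in 63.9%, against 50.8%, in intestine minus hindstomach, in 55.4%, against 66.2%, in intestine minus forestomach, and in 57.4%, against 79.2%, in colon minus forestomach. Over all genes, calls ran from 679 to 2138 (1365 in the reported fit) in bowel minus stomach, 0 to 317 (49) in colon minus intestine, 0 to 2323 (648) in intestine minus hindstomach, 75 to 3126 (721) in hindstomach minus forestomach, 0 to 949 (194) in colon minus hindstomach, 513 to 3949 (2201) in intestine minus forestomach and 151 to 3552 (1497) in colon minus forestomach. FPKM carries no read number, so no interval for counting error could be set on the low values of Hey1 or of Atoh1 in stomach.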

Other observations

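The 9 listed nuclear partners of Notch spanned a wide range of levels. The splicing and co-activator protein Snw1 (34.1 to 62.6 FPKM), the co-repressor Ctbp1 (29.0 to 54.2 FPKM) and the deacetylase Hdac1 (20.5 to 44.5 FPKM) were the highest of them in every library. Rbpj, the DNA-binding partner of cleaved Notch, had 1.63 and 2.42 FPKM in colon, 1.53 and 1.26 in intestine, 2.20 and 1.82 in hindstomach, and 2.23 and 1.19 in forestomach, and the co-activator Maml1 lay between 3.43 and 7.93 FPKM. The fringe enzyme Rfng lay between 9.99 and 18.5 FPKM. Hes5, a Notch target of neural progenitors, was at 0.285 FPKM or less and was listed at 0 in intestine replicate 2 and forestomach replicate 2. These 7 genes were chosen after their values had been seen.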
